A study of Mus musculus with 4 samples.

Results

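Cd24a and Ptprc encode CD24 and CD45, the surface antigens by which the cells of this single-cell RNA-Seq experiment were sorted (CD24+ CD45-). Both genes were taken by their symbols from the deposited table, in which they are 2 of 16600 genes. The cells came from the cortex of C57BL/6J mouse fetuses at E18.5. There were 2 samples of wild-type Setd5+/+ fetuses and 2 of Setd5+/- fetuses, which carry the Setd5 GFP allele as a heterozygous knockout. The suspensions of both genotypes were stained and sorted with the same antibodies. The mutation is carried by all tissues of the fetus. The samples stand for 2 fetuses of each genotype. P-values rest on the spread between these samples, which limma moderates with the variance of all genes tested. The cell names carry the library prefixes WT3 and WT6 (Setd5+/+) and Het5 and Het9 (Setd5+/-), by which values are given below.

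CD24 is a small, heavily glycosylated protein held at the cell surface by a glycosylphosphatidylinositol (GPI) anchor. In the developing brain it is known as a marker of young postmitotic neurons, in which it takes part in adhesion and neurite growth together with L1 family proteins, and it is also made by immature blood cells. CD45 is a receptor protein tyrosine phosphatase of all nucleated blood cells, where it acts on Src family kinases, and it is the usual antigen for removing immune cells from a brain preparation. The sort acts on the proteins, while the values here are transcript counts, so a level in a sorted cell says nothing of the cells that were sorted away.

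In GENCODE M21 on GRCm38, Cd24a (ENSMUSG00000047139.9) is on the plus strand at chr10:43578284-43584265. Its main transcript has 1816 bases in 2 exons, with a coding part of 231 bases and 1500 bases after the stop codon at chr10:43582763-43582765. Ptprc (ENSMUSG00000026395.16) is on the minus strand at chr1:138062861-138175708, and the gene model A130071D04Rik, still to be tested by experiment and not a row of the table, lies on the same strand inside it at chr1:138161820-138167683. The coding part of Cd24a has near copies in the genome, of which the closest is the processed pseudogene Gm6212 at chr14:119644012-119644231. They are shown because reads from near-identical copies cannot always be told apart. Capitals mark the 11 of 228 aligned bases at which the copies differ, 8 of them a stretch that Gm6212 lacks.
Cd24a: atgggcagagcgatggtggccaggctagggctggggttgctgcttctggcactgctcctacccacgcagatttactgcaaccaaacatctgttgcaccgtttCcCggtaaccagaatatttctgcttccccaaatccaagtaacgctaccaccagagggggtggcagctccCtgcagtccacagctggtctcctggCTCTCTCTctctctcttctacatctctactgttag
Gm6212: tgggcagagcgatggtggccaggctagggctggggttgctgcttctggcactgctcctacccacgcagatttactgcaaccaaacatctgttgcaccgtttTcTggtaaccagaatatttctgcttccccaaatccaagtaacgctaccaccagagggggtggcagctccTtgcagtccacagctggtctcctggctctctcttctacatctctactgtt
The match of Gm6212 ended 1502 bases before the 3′ end of the Cd24a transcript, and that of Gm15352 (91.9% identity over 258 bases) 1460 bases before it. The kit used here tags transcripts near the 3′ end. Gm6212 and Gm15352 are not in the table. Zfp846, which is in the table, matched near the 3′ end, with 79.2% identity over 149 bases.

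The libraries held 1445 to 1954 cells with 8205330 to 11742956 unique molecular identifiers (UMIs), and the median cell had 5398 to 5997. Levels are means over cells of the counts per 10000 UMIs of the cell. In the neural cells, Setd5 was at 1.21 counts per 10000 (WT3), 1.09 (WT6), 0.530 (Het5) and 0.581 (Het9), in the direction of the labels (log2 difference -0.93 ± 0.078 SE, adjusted p = 0.00388, limma). Xist, the transcript of the inactive X chromosome, was at 21.4 and 22.1 in the Setd5+/+ libraries and at 0.00318 and 0.00871 in the Setd5+/- libraries, and the Y-linked Ddx3y and Eif2s3y were found almost exclusively in the latter (at most 0.000626 in the former). Sex and genotype therefore cannot be told apart in any value below. Of the cell barcodes, 56 occurred in all 4 libraries (224 cells, 3.41% of 6562), 3 in 3 libraries and 22 in 2. These 224 cells were kept as classes of their own, and the neural cells exclude them and the cells gated as erythroid, immune, melanocyte or mural.

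Cd24a rose from radial glia to neurons in each of the 4 libraries. Cells were gated by marker genes that do not include Cd24a or Ptprc, such as Hes5 and Slc1a3 for radial glia, Eomes and Neurog2 for intermediate progenitors, Neurod2 and Neurod6 for excitatory neurons and Gad2 and Dlx6os1 for inhibitory neurons, with at least 3 markers found. Cells could meet several gates and were assigned in a fixed order, cycling cells before the rest (subpallial with at least 3 inhibitory markers), then Cajal-Retzius cells and glial progenitors, then the list with the largest share of its genes found. The median intermediate progenitor also held 3 excitatory neuron markers, and the median subpallial cycling cell 7 inhibitory markers. The gates gave 353 radial glia, 1090 intermediate progenitors, 792 cycling cells with subpallial markers, 485 other cycling cells, 1016 inhibitory neurons and 1984 excitatory neurons. The other cycling cells are named as a gate and not as a type. Their median cell held 7 cycling markers and 6 radial glia markers. Their 10 leading genes by fold held none of the cycling list, which the subpallial cycling cells also met. They held 3 of the radial glia list (Fabp7, Ddah1 and Aldoc).

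In radial glia, the stem cells that line the ventricle, Cd24a was at 2.74 counts per 10000 in WT3, 2.88 in WT6, 2.95 in Het5 and 2.74 in Het9. In the other cycling cells it was at 5.70, 4.37, 4.71 and 4.68. In intermediate progenitors, which divide to give excitatory neurons, it was at 6.37, 6.23, 6.12 and 6.19. The 4 libraries lay close together in each of these gates, and no gate overlapped the next. In the subpallial cycling cells, whose markers are those of the inhibitory lineage, the level was 10.3, 10.3, 11.2 and 12.1. In inhibitory neurons it was 15.8, 17.1, 15.5 and 17.7, and in excitatory neurons 20.3, 19.7, 20.7 and 21.9. Radial glia thus held 12.5% to 14.6% of the excitatory neuron level of the same library, intermediate progenitors 28.3% to 31.7%, and inhibitory neurons 74.8% to 87.2%. The gates are listed in the order of their mean level, which fixes the direction of each step, so the steps are a description with no test. The ranges of neighboring gates did not overlap in any of the 5 steps, and the steps ran from 1.36 ± 0.499 (SD, n = 4) counts per 10000 between the other cycling cells and intermediate progenitors to 5.54 ± 1.05 between subpallial cycling cells and inhibitory neurons.

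**Figure D1:**
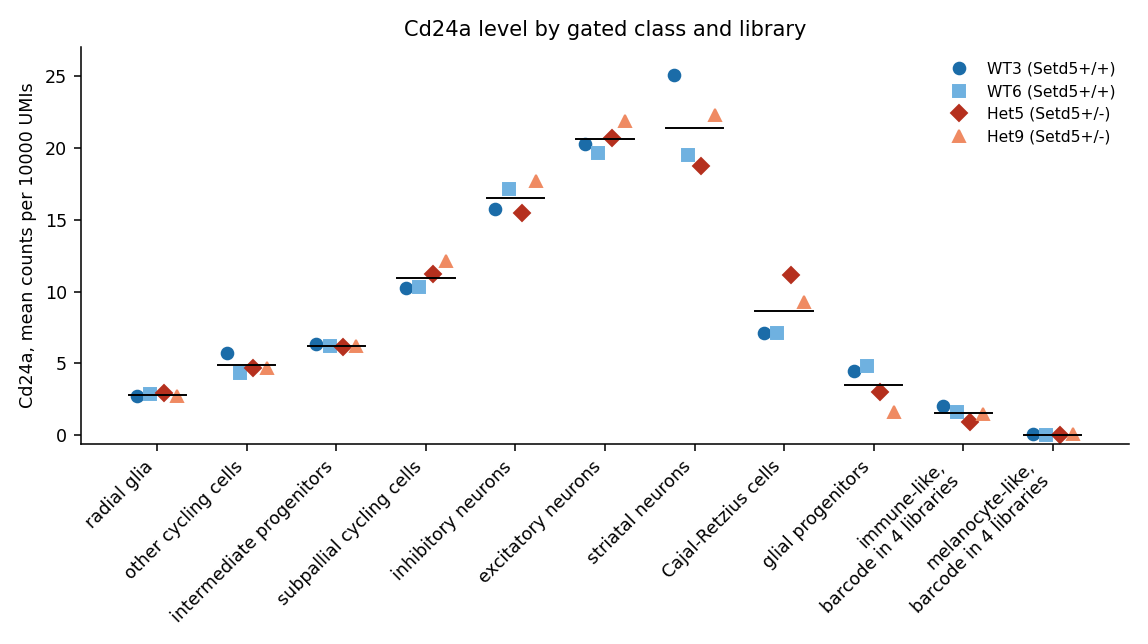
Mean Cd24a level in counts per 10000 UMIs (vertical axis) in each gated class (horizontal axis), with a symbol for each library and a line at the mean over libraries. The level climbs from 2.83 ± 0.104 (SD, n = 4) in radial glia to 20.6 ± 0.943 in excitatory neurons, and the melanocyte-like cells with barcodes in all 4 libraries lie at 0.0487 ± 0.0564.

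The smaller neural classes lay along the same range, with a wider spread. The 37 cells with striatal neuron markers had 21.4 ± 2.87 (SD, n = 4), which overlapped the excitatory neurons (exact permutation p = 0.75, two-sided, over the 4 differences). Cajal-Retzius cells, the early-born reelin neurons of the cortical surface, had 8.67 ± 1.93 over 52 cells, 35.2% to 53.9% of the excitatory neuron level of their library. Their range of 7.13 to 11.1 lay above that of intermediate progenitors and overlapped that of the subpallial cycling cells. The 34 glial progenitors, with Olig1, Olig2 or other markers of the oligodendrocyte lineage, had 3.47 ± 1.49 and overlapped both radial glia and the other cycling cells. With only 2 cells in Het9 and 3 striatal cells in Het5, these classes were not tested across genes. The 402 neural cells left ungated, by a tie between lists or too few markers, had 15.2 ± 1.08, within reach of the inhibitory neurons.

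Each gate was compared with the excitatory neurons by limma across all genes, with the library as a block and on the scale of log2(mean counts per 10000 + 0.1). Cd24a was lower in radial glia by a log2 difference of -2.82 ± 0.0528 SE (adjusted p = 1.17e-19), where 28% of 8200 genes were called lower and 53 fell further. In the other cycling cells the difference was -2.07 ± 0.0503 (adjusted p = 8.42e-20), where 31.6% of genes were called lower. In intermediate progenitors it was -1.71 ± 0.0329 (adjusted p = 7.21e-28), with 29.5% called lower. A call was thus common among all genes in these contrasts, and what is given of Cd24a is its size. In the subpallial cycling cells the difference was -0.91 ± 0.0331 (adjusted p = 2.01e-21, 40.5% called lower, 755 genes lower still). In inhibitory neurons it was -0.32 ± 0.0439 (adjusted p = 7.29e-07, 18.3% called lower, 1307 genes lower still).

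Within a gate, single cells spread widely around these means. The median radial glial cell had 1.84 counts per 10000 in WT3, 2.15 in WT6, 2.05 in Het5 and 1.89 in Het9, with a 10th percentile of 0 in each library. The median excitatory neuron had 19.3, 18.4, 19.6 and 20.4, with 10th percentiles of 8.27 to 10.6. The 90th percentile of radial glia, 6.51 to 7.44, lay below the 10th percentile of excitatory neurons in each of the 4 libraries. The 90th percentile of intermediate progenitors, 13.2 to 14.9, lay above it. The counts behind these values were small, and the neural cell with the most held 39 Cd24a UMIs.

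**Figure D2:**
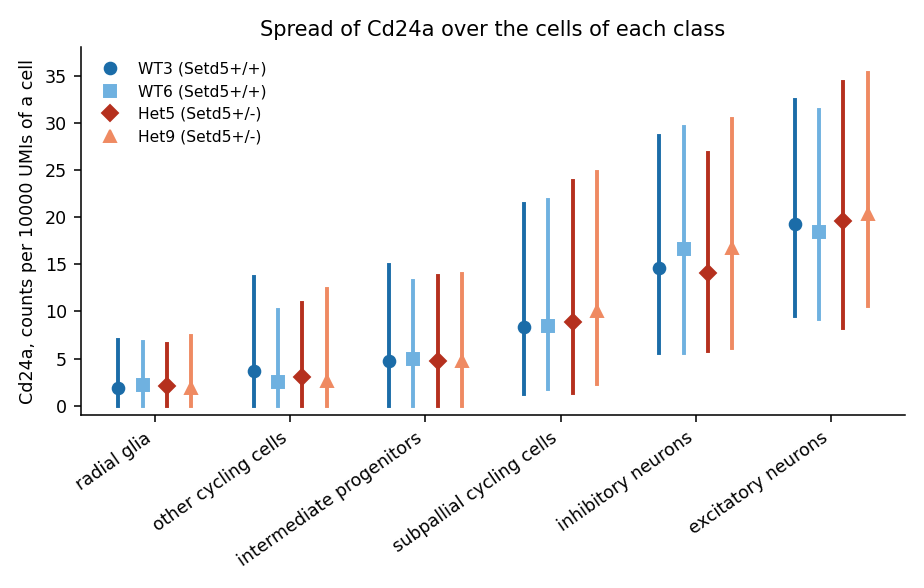
Cd24a in single cells, in counts per 10000 UMIs of the cell (vertical axis), for the 6 larger gates (horizontal axis). Symbols are the medians over cells of each library and bars run from the 10th to the 90th percentile. The bars of radial glia end below where those of excitatory neurons begin in all 4 libraries, while those of the subpallial cycling cells reach from 1.19 to 2.33 up to 21.4 to 24.8.

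Although the cells were sorted on the protein, 417 of 6245 neural cells (6.68%) had no Cd24a UMI. Of these, 328 (78.7%) were radial glia, other cycling cells or intermediate progenitors, which made up 30.9% of the neural cells. The share without a UMI was 26.9% of radial glia, at a median depth of 6308 UMIs, and 0.655% of excitatory neurons, whose 13 such cells had a median of 2576 UMIs. To compare shares at equal depth, each cell was thinned to 2000 UMIs and the shallower cells were left out (11 in WT3, 54 in WT6, 32 in Het5 and 23 in Het9). A Cd24a UMI then remained in 29.2% of radial glia in WT3 (exact 95% binomial interval 17.0% to 44.1%), 39.1% in WT6, 44.4% in Het5 and 38.7% in Het9. In the other cycling cells the share was 41.1% to 52.9%, in intermediate progenitors 59.3% to 61.4%, in subpallial cycling cells 73.9% to 78.9%, in inhibitory neurons 89.2% to 95.3% and in excitatory neurons 94.8% to 97.4%. Before thinning, the shares were 62.5% to 76.7% in radial glia and 99.1% to 99.8% in excitatory neurons. The melanocyte-like cells with barcodes in all 4 libraries gave a Cd24a UMI in 0% to 3.33% of cells thinned. Unthinned it was 0% to 6.25%, at medians of 5440 to 5674 UMIs per cell, against medians of 5909.5 to 6680.5 in radial glia. These are 30 to 32 cells a library from the same 32 barcodes, so they do not measure free RNA in the other droplets, which was not tested. The interval covers counting error only.

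Cells with progenitor markers held less Cd24a than cells without, marker by marker. For each marker found in at least 20 neural cells of every library, the mean Cd24a level was compared between cells with and without a UMI of the marker. Cd24a was lower in the cells with the marker in 4 of 4 libraries for 10 of 10 radial glia markers, 10 of 10 cycling markers and 6 of 6 intermediate progenitor markers. These lists overlapped in level, with means in the cells with the marker of 3.95 to 11.3 counts per 10000 for radial glia markers, 8.30 to 10.5 for cycling markers and 3.74 to 11.1 for intermediate progenitor markers. With Aldoc, a glycolytic enzyme of radial glia and astrocytes, it was at 3.95 counts per 10000 against 14.8 without. With Eomes, the transcription factor of intermediate progenitors, it was at 8.49 against 15.6. Among the excitatory neuron markers it was higher with 6 of 8 and lower with 1 of 8 in all 4 libraries. With Bhlhe22, a transcription factor of projection neurons, it was at 19.6 against 11.7, while with Fezf2, a determinant of deep-layer neurons that is also found in progenitors, it was at 11.3 against 14.3. Among inhibitory markers it was higher with 4 of 10, including Gad1 (15.5 against 13.4), and lower with 1 of 10, while the other 5 went both ways. Of 4 striatal markers it was higher with 2 and lower with 1, and none of the 3 Cajal-Retzius markers had 1 direction in all 4 libraries. With Olig2, the transcription factor of the oligodendrocyte lineage, it was at 6.14 against 14.0. These are descriptions of overlapping sets of cells with no test, and depth was not adjusted for.

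Other surface antigens used to sort neural cells were not uniformly high in neurons. Of the 12 such genes tested between radial glia and excitatory neurons, 7 were higher in radial glia and 4 lower, where 29.2% of all genes were called higher and 28% lower. The median difference was 0.54 on the log2 scale, against -0.01 over all genes tested. Ncam1, the neural cell adhesion molecule, was at 1.34 ± 0.263 (SD, n = 4) counts per 10000 in radial glia, 3.24 ± 0.190 in excitatory neurons and 5.31 ± 0.382 in inhibitory neurons (log2 difference -1.24 ± 0.105 SE between radial glia and excitatory neurons, adjusted p = 2.74e-09). Cd81, a tetraspanin, was higher in radial glia (3.796 against 1.96, log2 difference 0.93 ± 0.0749, adjusted p = 1.35e-09). Cd47, the ligand that restrains phagocytes, was lower there (0.920 against 1.37, log2 difference -0.54 ± 0.111, adjusted p = 0.000342). Slc1a3, the glial glutamate transporter, was itself a gate marker and was left out of the test. L1cam and Vcam1, named after their values were seen, differed most (log2 differences -3.25 ± 0.162 and 2.78 ± 0.168).

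Among the 9 tested genes of CD24 binding partners and of the GPI transamidase, the enzyme complex that attaches the anchor, 4 were higher in radial glia than in excitatory neurons and 3 lower, against 29.2% and 28% of all genes (median -0.10 on the log2 scale, against -0.01 over all genes). Cntn2, a GPI-anchored adhesion molecule of the L1 family network, went from 0.0591 counts per 10000 in radial glia to 2.67 in excitatory neurons (log2 difference -4.17 ± 0.169 SE, adjusted p = 2.42e-14). Fyn, the Src family kinase on which GPI-anchored proteins can act, was also lower in radial glia (0.778 against 1.55, -0.91 ± 0.10, adjusted p = 1.32e-07). Hmgb1, a chromatin protein that binds CD24 once released from cells, was higher in radial glia (18.3 against 11.8, 0.62 ± 0.0402, adjusted p = 3.97e-11). Pigt, a transamidase subunit, was higher there as well (0.857 against 0.633, 0.38 ± 0.114, adjusted p = 0.00704).

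The genes whose pattern was most like that of Cd24a were found by Pearson correlation of log2(mean counts per 10000 + 0.1) over 32 points, the 6 gates and the immune-like and melanocyte-like shared cells in the 4 libraries. They were Basp1 (r = 0.972), Rab11b (0.961), Sh3bp1 (0.958), Sept3 (0.952) and Vopp1 (0.948), out of 11152 genes. Over the 24 points of the 6 neural gates alone, which were added after the data were seen, they were Stmn3 (0.980), Snap25 (0.980), Tmsb10 (0.974), Nrep (0.974) and Fnbp1l (0.974). Points of the same library share its depth, and those of the shared cells share their barcodes. Stmn3 encodes a regulator of microtubules and Snap25 a protein of synaptic vesicle fusion, and both are known neuronal genes.

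Between the genotypes, the level of Cd24a in the neural cells did not differ beyond the spread between libraries. It was 13.7 counts per 10000 in WT3, 12.6 in WT6, 13.0 in Het5 and 15.0 in Het9, so the genotypes overlapped. The log2 difference was 0.08 ± 0.0759 SE (95% interval -0.09 to 0.26, adjusted p = 0.996, limma), where 7 of 8026 genes (0.0872%) were called. Among those 7 were Setd5 itself and the sex-linked Xist, Ddx3y and Eif2s3y. The exact permutation p was 0.667 (two-sided), and 2 against 2 libraries cannot go below 0.33. Without Het9 the log2 difference was -0.02. The share of neural cells with a Cd24a UMI was 94.1% and 92.9% in the Setd5+/+ libraries and 92.7% and 93.9% in the Setd5+/- libraries.

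Within the gates, Cd24a was not called between genotypes in any of the 6, and the share of all genes called was 0.0732% in radial glia, 0.087% in the other cycling cells, 0.182% in intermediate progenitors, 0.107% in subpallial cycling cells, 0.118% in inhibitory neurons and 0.0902% in excitatory neurons. In the subpallial cycling cells both Setd5+/- libraries (11.2 and 12.1) lay above both Setd5+/+ libraries (10.3 and 10.3), with a log2 difference of 0.18 ± 0.0761 SE (95% interval 0.02 to 0.34). Its unadjusted p was 0.0346 and its adjusted p 0.989, and 310 of 7467 genes there had an unadjusted p under 0.05. In excitatory neurons both Setd5+/- libraries were also the higher ones (20.7 and 21.9 against 20.3 and 19.7, log2 difference 0.09 ± 0.0540, adjusted p = 0.998, and 0.0493 without Het9). In intermediate progenitors both were the lower ones (6.12 and 6.19 against 6.37 and 6.23, log2 difference -0.03 ± 0.0662, adjusted p = 0.989). That value was -0.0155 without WT3, -0.0492 without WT6 and 0.0503 with gates of 4 markers. In radial glia, the other cycling cells and inhibitory neurons the genotypes overlapped, with log2 differences of 0.02 ± 0.139, -0.09 ± 0.123 and 0.01 ± 0.101. The interaction of genotype with class, progenitors minus neurons, was -0.08 ± 0.161 for Cd24a (95% interval -0.44 to 0.28, adjusted p = 0.9999). In that fit 0 of 8034 genes (0%) were called by limma, and 356 had an unadjusted p under 0.05.

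**Figure D3:**
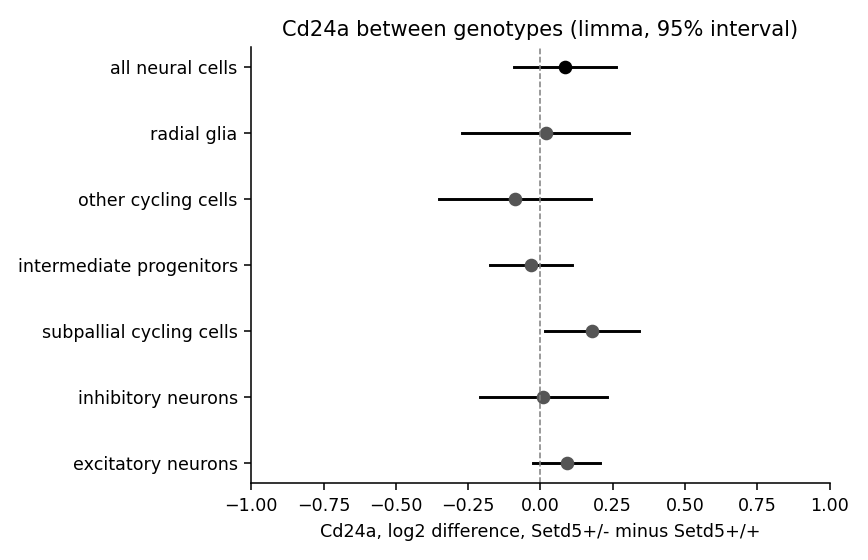
Difference in Cd24a between genotypes, Setd5+/- minus Setd5+/+, on the log2 scale (horizontal axis) in all neural cells and in the 6 gates (vertical axis). Points are limma estimates from 2 against 2 libraries and bars their unadjusted 95% intervals, of which that of the subpallial cycling cells (0.02 to 0.34) alone does not reach 0.

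No gene of the lists tied to the 2 antigens was called between genotypes in the neural cells by limma. These were 13 tested surface antigens of neural sorts (median log2 difference 0.01, against -0.00 over all genes), 9 CD24 partners and transamidase genes (0.02), 7 CD45 substrates and regulators of Src family kinases (-0.04) and 7 receptor protein tyrosine phosphatases (0.13). At an unadjusted p under 0.05 there were 2, 1, 0 and 0 genes of these lists, in that order, against 339 of 8026 genes in all. Cntn2 had a log2 difference of 0.43 ± 0.0981 SE with an adjusted p of 0.546. Of the surface antigens used to remove blood and vessel cells, 5 of 9 were in the table and 0 passed the filter on low values. Kit, the stem cell factor receptor, was at 0.0713 counts per 10000 in the neural cells, Pecam1, an adhesion molecule of vessel walls, at 0.00607, and Cd3e and Itgam were listed at 0.

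Ptprc was nearly absent from the neural cells. Over 6562 cells it had 142 UMIs in 82 cells, of which 6 UMIs in 6 cells were among the 6245 neural cells (0.0961%). By library the neural cells held 0 UMIs in WT3, 3 in WT6, 1 in Het5 and 2 in Het9. The 0 of 1380 cells in WT3 allows a share of up to 0.217% of cells with a UMI. Such limits are on detection and not on expression, since even of the immune-like cells described below 63.6% to 77.3% had a Ptprc UMI. The 6 neural cells were 2 excitatory neurons, 2 Cajal-Retzius cells, 1 other cycling cell and 1 ungated cell, each with 1 Ptprc UMI and 4 to 20 Cd24a UMIs. Radial glia had 0 of 353 cells with a UMI (up to 0.850%), intermediate progenitors 0 of 1090 (up to 0.275%), subpallial cycling cells 0 of 792 (up to 0.379%) and inhibitory neurons 0 of 1016 (up to 0.295%). The mean neural level was 0.00102 counts per 10000 in Setd5+/+ and 0.00204 in Setd5+/- libraries, a difference of 0.00102 against an SD within genotypes of 0.00144 (exact permutation p = 0.667, two-sided). It was -3.96e-06 without WT3, 7.46e-06 without Het9, 0.00204 without WT6 and 0.00203 without Het5, and 0.000445 from summed UMIs per 10000. Ptprc did not pass the filter for a test across genes.

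Most of the Ptprc UMIs sat in cells whose barcodes occurred in all 4 libraries. These cells held 29 of 30 Ptprc UMIs in WT3, 28 of 34 in WT6, 29 of 35 in Het5 and 29 of 43 in Het9, in all 115 of 142 (81.0%). Their level was 2.24, 2.36, 2.40 and 2.58 counts per 10000, against 0.000898, 0.00572, 0.0192 and 0.0633 in the rest of the same library. The difference was 2.37 ± 0.115 (SD over the 4 libraries), and 1.499 after thinning each cell to 2000 UMIs, which left out the shallower cells (44 of the 87 immune-like ones). Since the same barcodes are counted in each library, the libraries are not independent here, and the exact permutation p of 0.13 (two-sided, the smallest that 4 differences allow) does not measure replication. Without barcodes found in 2 or more libraries, 1, 5, 1 and 10 Ptprc UMIs were left in WT3, WT6, Het5 and Het9.

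**Figure D4:**
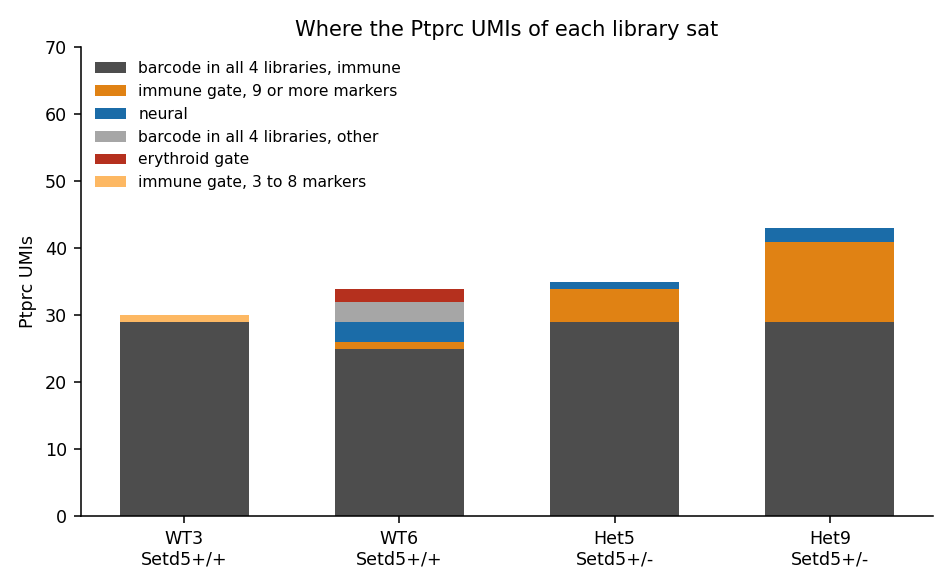
Number of Ptprc UMIs (vertical axis) in each library (horizontal axis), divided by the kind of cell that held them. Immune-like cells with barcodes in all 4 libraries held 25 to 29 UMIs in each library. The number in other cells of the immune gate with 9 or more immune markers went from 0 in WT3 to 12 in Het9.

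The cells with shared barcodes were mostly immune-like or melanocyte-like. The other 12 cells held no Cd24a and 3 Ptprc UMIs, all in 1 WT6 cell. That cell missed the immune gate in WT6, but its barcode was immune-like in the other libraries and is among the 22 barcodes below. In the immune-like cells, 22 barcodes with 1567 to 5781 UMIs, Ptprc was at 5.69, 5.69, 6.12 and 6.57 counts per 10000 in WT3, WT6, Het5 and Het9, and was found in 17 of 22, 16 of 21, 15 of 22 and 14 of 22 cells. Of the 22 barcodes, 10 had Ptprc in all 4 libraries, 6 in 3, 2 in 2, 1 in 1 and 3 in none, and the highest total was 16 UMIs. The same 22 barcodes were led by class II antigen presentation genes: Cd74 was at 88.4 to 104 counts per 10000, against 0.0240 in the neural cells, and H2-Ab1 at 58.6 to 65.9. Spi1, the myeloid transcription factor, was at 2.17 to 3.19, while the microglial P2ry12 was at 0 in all 4 libraries and Cx3cr1 at 0 to 0.226. Of the 22 immune markers, 21 were thus found in these cells.

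The 32 melanocyte-like barcodes (125 cells, led by Dct and Pmel) had no Ptprc UMI and 3 Cd24a UMIs in all. With the barcodes counted once, 0 of 32 allows a share of up to 9.38%. In these cells neither sort antigen was found at more than 0.102 counts per 10000 in any library.

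The immune-like shared cells also held Cd24a, though little of it: 2.07, 1.66, 0.906 and 1.48 counts per 10000, from 28 UMIs in 7 of the 22 barcodes. Both genes were found in 5 of the 22 barcodes. Among the 63 cells with shared barcodes and a Ptprc UMI, 11 also had a Cd24a UMI.

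**Figure D5:**
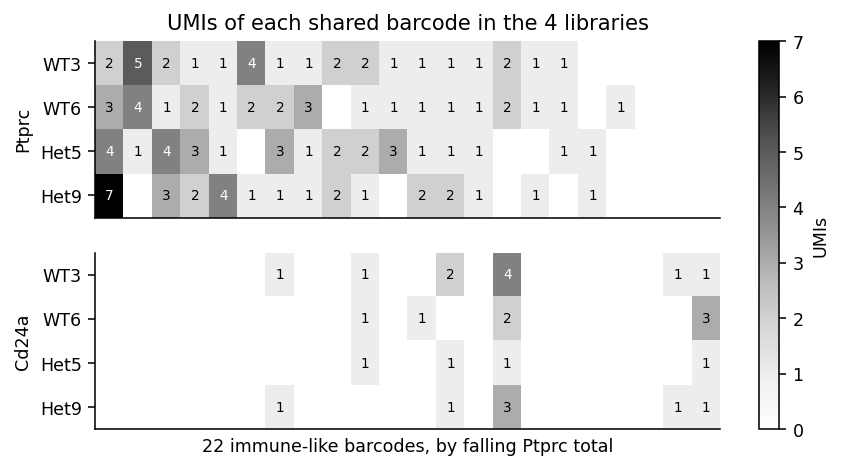
UMIs of Ptprc (upper panel) and Cd24a (lower panel) for each of the 22 immune-like barcodes (columns, in order of their Ptprc total) in the 4 libraries (rows), where an empty cell is 0. The same columns hold Ptprc in several libraries, up to 7 UMIs in 1 library, and Cd24a is confined to 7 of the 22 columns.

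Cells with the same barcode resembled each other across libraries. The UMI total of a barcode differed between its highest and lowest library by a factor of 1.01 to 1.17 (median 1.06), and 53 of the 56 barcodes were given the same class in all 4 libraries. For 224 of 224 cells, the most similar shared cell had the same barcode (median correlation over genes within a barcode 0.657, against 0.565 between barcodes of the same class). In these 224 cells Setd5 was at 0.722 counts per 10000 in WT3, 0.643 in WT6, 0.836 in Het5 and 0.627 in Het9, so the genotypes overlapped. Xist was at 3.53 to 4.56 in them in all 4 libraries, also in Het5 and Het9, whose neural cells had almost none. Leaving these cells out moved the level of Cd24a over all cells only from 13.2, 12.2, 12.5 and 14.2 to 13.7, 12.6, 13.0 and 14.8 in WT3, WT6, Het5 and Het9.

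Among 7 receptor protein tyrosine phosphatases tested, 3 were higher in radial glia than in excitatory neurons and 3 lower, where 29.2% of all genes were called higher and 28% lower. Ptprz1, the phosphatase of radial glia and oligodendrocyte precursors, was at 6.11 ± 1.14 (SD, n = 4) counts per 10000 in radial glia and 0.721 in excitatory neurons (log2 difference 2.93 ± 0.108 SE, adjusted p = 5.05e-15). Ptprs, a receptor for proteoglycans on axons, was at 2.51 and 4.93 (-0.95 ± 0.0682, adjusted p = 2.16e-10). Ptpra, which also activates Src family kinases, was at 1.16 and 0.944 (0.27 ± 0.107, adjusted p = 0.0393), and Ptprf was at 0.827 and 0.875 (-0.08 ± 0.111, adjusted p = 0.587). In the immune-like shared cells Ptprz1 and Ptprf were at 0, and Ptprs was at 0.158.

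Of 7 tested CD45 substrates and regulators of Src family kinases, 1 was higher in radial glia and 3 lower, against 29.2% and 28% of all genes. Besides Fyn, the lower ones were Csk, which phosphorylates the inhibitory site that CD45 clears (0.544 against 0.837 counts per 10000 in excitatory neurons, log2 difference -0.55 ± 0.122 SE, adjusted p = 0.000611) and Src (0.255 against 0.377, -0.44 ± 0.162, adjusted p = 0.0249), and the higher one was Yes1, a kinase of the same family named after its values were seen (0.367 against 0.194, 0.66 ± 0.168, adjusted p = 0.00214). Jak1 was at 0.352 against 0.302 (0.17 ± 0.151, adjusted p = 0.368). Lck, the T cell kinase, was at 1.61 counts per 10000 in the shared immune-like cells and at 0.00926 in the neural cells, and Ptprcap, a protein associated with CD45, at 2.72 and 0.00125 (both named after their values were seen). Over the 32 points, Ptprc was most like 2310031A07Rik, Ltb4r1, Ccl4, Laptm5 and Napsa (Pearson r of 0.9993 to 0.9998). Outside the immune-like cells, Ptprc lay at or near 0 at these points.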

How the data were processed

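Single cells of 2 Setd5+/+ and 2 Setd5+/- cortex samples were sorted as live CD24+ CD45- cells and run on a 3′ droplet kit (10x, v2), with about 2500 cells a sample. Cell Ranger 2.1, Seurat 2.3.0 and mm10 are named in the submitters' processing notes. Per the sources used here, gene annotation, strandedness and cell filtering are not given. The deposited table holds, as the authors normalized it, ln(1 + counts per 10000), where the counts are scaled to the total of each cell (natural log), in 1 matrix for all cells. Its library prefixes give the genotype but not the replicate number. After reversing the log, 100% of the 14848520 values above 0 were whole multiples of the value of 1 UMI (tolerance 0.001), so UMIs per cell were recovered (1258 to 14996).

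Cells were gated by at least 3 detected markers (2 for glial progenitors, 5% of UMIs for erythroid cells), using 112 of 116 listed genes found in the table. Levels were averaged over the cells of a library, since libraries and not cells are the replicates. They were tested on log2(mean + 0.1) with limma 3.58.1 (R 4.3.3, variance trend, genes with a mean of at least 0.1, Benjamini-Hochberg over all genes, threshold 0.05). Contrasts between gates had library as a block and left out the gate markers. Single values were tested by exact permutation over libraries (scipy 1.17.1). Binomial intervals are exact, at 95%, and a count of 0 allows 3 counts; both cover counting error only. Scrublet (scanpy 1.11.5) called 64 cells (0.975%) doublets, which were kept and left out as an alternative. Other alternatives were the pseudocount, the filter, summed UMIs, thinning, gates of 4 markers and leaving out each library. The fits were tested on simulated data. Genes named were Cd24a and Ptprc, gate markers, of each list the genes called between genotypes (none) and up to 4 with the highest level, the 5 most alike genes, and Setd5, Xist, Ddx3y and Eif2s3y. Any other is said to be chosen after its values were seen. Some genes that this rule names are not reported here. Members and lists were chosen with earlier results of these data known.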

Additional observations from a re-analysis of the deposited data

How the results depend on the processing

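Cd24a kept its direction and its side of the threshold in 50 of 50 alternatives of the 5 contrasts between gates (highest adjusted p = 0.00115, limma). Between genotypes it was called in 0 of 63 alternatives (lowest adjusted p = 0.403), and its direction turned in 10. Over all neural cells, leaving out 1 library gave log2 differences of -0.0162 (without Het9) to 0.186, in radial glia -0.0334 (without Het5) to 0.0690, with -0.0159 without WT3, in the other cycling cells -0.276 to 0.101 (without WT3) and in inhibitory neurons -0.0884 (without Het9) to 0.109, with -0.0505 without WT3. Gates of 4 markers gave -0.0995 in radial glia, 0.0364 in the other cycling cells and 0.0503 in intermediate progenitors, and moved 1260 neural cells (20.2%) to another class. Summed UMIs gave -0.00313 in radial glia. The cause of these turns was not tested. The 7 genes called between genotypes became 33 without WT3, 13 without WT6, 23 without Het5 and 6 without Het9. A lone library left in a group is assumed to vary like the other group.

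The difference in Ptprc between the cells with barcodes in all 4 libraries and the others was 2.14 counts per 10000 with barcodes in at least 2 libraries and 1.499 after thinning to 2000 UMIs, against 2.37. The share of cells with a Cd24a UMI depends on depth by construction: thinned to 1000 UMIs it was 20.5% in radial glia, 30.0% in the other cycling cells, 42.9% in intermediate progenitors, 58.4% in subpallial cycling cells, 76.9% in inhibitory neurons and 83.9% in excitatory neurons, and not thinned 71.4%, 80.9%, 87.0%, 95.2%, 98.2% and 99.4%, in the same order of gates. Pseudocounts and the filter were not run for Ptprc, which had no fit across genes. No paired analysis was possible because the cell names carry no replicate number of the labels.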

Other observations

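Among the cells whose barcodes did not occur in all 4 libraries, 52 were gated as immune (at least 3 immune markers, after the erythroid gate). They differed widely in both antigens. The 20 of these 52 with 9 or more immune markers (0 in WT3, 2 in WT6, 5 in Het5 and 13 in Het9) had a median of 1482 UMIs. They held 18 Ptprc UMIs (mean 5.96 counts per 10000) and Cd24a at 1.89. A WT6 cell gated as erythroid, with 11 immune markers and 2 Ptprc UMIs, is not among the 52. The other 32 of the 52, with 3 to 8 immune markers, had a median of 6624.5 UMIs, 1 Ptprc UMI and Cd24a at 13.8, within the range of the neural gates. The split at 9 markers was chosen after the data were seen. Of the 20 cells, 10 had barcodes found in 2 or 3 libraries.

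The 34 cells with at least 5% of their UMIs in the erythroid list had a median globin share of 57.7% and a median of 10158.5 UMIs, and 33 of the 34 had a Cd24a UMI (mean 9.84 counts per 10000). Of these cells, 7 also met the marker minimum of excitatory neurons and 9 that of inhibitory neurons. Whether Cd24a in them came from erythroid cells or from neurons in the same droplet cannot be told apart.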
